A study of Homo sapiens with 6 samples.

Results

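The genes described here are 9 genes of the B-cell program: PAX5, EBF1, SPI1, SPIB, BCL6, BACH2, CIITA, MS4A1 and CD79B. They were taken by name, whatever their values, out of 19689 protein-coding genes with a protein-coding transcript in GENCODE release 44. Their chromatin accessibility was read from Omni-ATAC peak lists of MM.1S cells, a long-established human myeloma line, on the hg38 genome. Omni-ATAC uses a transposase that inserts sequencing adapters into DNA not covered by nucleosomes, and a peak is a stretch where insertions pile up above the local background. In the treated group the cells received 120 nM CB-6644, an inhibitor of the RUVBL1/RUVBL2 ATPase, for 72 h (3 libraries). The control group received DMSO, the solvent, for which the labels give no time (3 libraries). Both groups were the same cell line in the same medium, and live cells were sorted before tagmentation, so cells that died under CB-6644 are not represented. MM.1S is a single cell line, and nothing in the labels says that replicates were separate cultures, so p-values measure the spread between these libraries, which may be technical.

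PAX5, EBF1, SPI1 (encoding PU.1) and SPIB are transcription factors that set up and maintain B-cell identity. BCL6 and BACH2 are repressors that hold activated B cells back from the plasma cell state, CIITA is the coactivator that switches on MHC class II genes, and MS4A1 (CD20) and CD79B (a signalling chain of the B-cell receptor) are surface proteins. When a B cell becomes a plasma cell, factors such as PRDM1 turn this program down, and myeloma is a cancer of plasma cells. The peak lists measure accessibility and not expression, so whether these genes were silenced was not measured here.

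Peaks of the 6 libraries that overlapped by at least 1 bp were merged into 89196 regions, of which 116 lay in the 9 loci, a locus being the gene body with 50 kb on each side. The libraries listed between 58563 and 79020 peaks, and the 3 CB-6644 libraries called fewer merged regions (57226 to 60349) than the 3 DMSO libraries (64577 to 71131). The lists give no read totals, so the depth is unknown, and a missing peak means only that the peak caller listed none there. CB-6644 replicate 2 had peaks as short as 65 bp and DMSO replicate 1 as short as 91 bp, while no peak of the other 4 libraries was under 131 bp. The former are called the short-fragment libraries, and differences are also given within the 4 long-fragment ones. These names rest on the shortest listed peak alone, because the sources used here give no fragment length, and a peak-calling setting could also differ. Of 9 plasma cell markers, looked up to check the labelled cell type, 8 had a promoter peak in all 6 libraries, and JCHAIN had a peak in 3. Of 5 T cell, 5 myeloid, 3 erythroid and 2 stromal markers, 2, 1, 1 and 1 had a promoter peak in all 6. Of all protein-coding genes 64.9% had one, and lists this small do not establish a cell type.

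Most of the 9 genes had a promoter peak, as did most protein-coding genes. A promoter peak, within 1000 bp of a TSS of a protein-coding transcript, was listed in all 6 libraries for 7 of the 9 genes (77.8%), against 64.9% of all protein-coding genes. SPIB and MS4A1 had no promoter peak in any library, which held for 29.7% of all genes. No promoter of the 9 genes was open in some libraries and missing in others, and every library listed the same 7. The 9 genes have 43 TSSs, of which 23 had a peak in all 6 libraries and 20 had none.

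The strength of a promoter was read as the percentile of its -log10 p among the 42089 regions called in all 6 libraries, ranked within each library, because fold enrichments and p-values are not scaled between libraries. With 3 against 3 libraries the exact two-sided permutation test cannot give a p below 0.1, so no single gene could pass the usual threshold, and no p-value was adjusted.

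PAX5, the factor that commits cells to the B lineage, lies on the minus strand at chr9:36833269-37034268. Its promoter region (chr9:37034301-37035028, just upstream of the first exon) had rank percentiles of 8.70, 40.4 and 9.77 in CB-6644 replicates 1 to 3 and 12.6, 12.7 and 22.7 in DMSO replicates 1 to 3. The groups overlapped, with the short-fragment CB-6644 replicate 2 far above the other libraries. Their means were 19.6 ± 17.99 and 16.0 ± 5.82 (SD, n = 3 each; p = 1, exact permutation), and within the long-fragment libraries the difference was -8.46. Averaged over the 6 libraries, this promoter stood at percentile 3.59 among genes with a promoter region in all 6, the lowest of the 7 genes. The other 3 PAX5 TSSs, at 37002675, 37002752 and 37025748 inside the gene, had no peak within 1000 bp. The strongest region of the locus (chr9:37027566-37028012, singled out after its values were seen) lay outside every 1000 bp promoter window. It was in an intron 6.48 kb downstream of the canonical TSS. It was also upstream of the internal TSS at 37025748 and within 2000 bp of it, and whether it serves that TSS was not tested. The region ranked between 97.9 and 98.5 in every library.

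EBF1, which acts upstream of and together with PAX5, lies on the minus strand at chr5:158695920-159099916, and all 3 of its TSSs had a peak in every library. The stronger of its 2 promoter regions (chr5:159099046-159099412, over an exon) had rank percentiles of 72.2, 77.0 and 72.6 with CB-6644 and 77.5, 73.1 and 53.5 with DMSO. The groups overlapped, and DMSO replicate 3 was the lowest library. The means were 73.9 ± 2.65 and 68.0 ± 12.8 (SD, n = 3 each; p = 0.9, exact permutation). The second region (chr5:159100131-159100621), upstream of the gene, differed by -4.41 (p = 0.5, exact permutation, n = 3 each).

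SPI1 lies on the minus strand at chr11:47354860-47378547, and its 4 TSSs share a promoter region (chr11:47378109-47378898, over an exon and UTR). Its rank percentiles were 35, 54.3 and 33.7 with CB-6644 and 31.9, 27.9 and 23.6 with DMSO. The groups did not overlap, with all CB-6644 values on top, which was so for 1 of the 11 promoter regions of the 9 genes. Of all regions called in all 6 libraries, at promoters or elsewhere, it was so for 13.3%. The share among promoter regions alone was not computed. The means were 41.0 ± 11.5 and 27.8 ± 4.17 (SD, n = 3 each), a difference of 13.2 (p = 0.1, exact permutation, the smallest possible). The difference was 8.58 within the long-fragment libraries and 7.49 without CB-6644 replicate 2, and the groups overlapped when ranked by fold (12.2) and when ranked over all regions of a library (4.24).

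SPIB, the close relative of PU.1 in B cells, lies on the plus strand at chr19:50418938-50431314. None of its 4 TSSs, at 50418938 to 50418958, had a peak in any library. The nearest region (chr19:50415591-50416086) began 2852 bp away as measured from the TSS to its nearer edge, at the promoter of ENSG00000142539. The body of that protein-coding gene also covers the SPIB exon region chr19:50428159-50428331, so it extends over SPIB. The RefSeq GRCh38.p14 promoter sequence is shown because it is the stretch in which no library listed a peak. It runs from 250 bases before the start of the gene to 50 after it (chr19:50418688-50418987, plus strand), and the capitals mark a match to the EBF motif CCCNNGGG, which 19.1% of all RefSeq promoters of this length held on either strand.
SPIB promoter: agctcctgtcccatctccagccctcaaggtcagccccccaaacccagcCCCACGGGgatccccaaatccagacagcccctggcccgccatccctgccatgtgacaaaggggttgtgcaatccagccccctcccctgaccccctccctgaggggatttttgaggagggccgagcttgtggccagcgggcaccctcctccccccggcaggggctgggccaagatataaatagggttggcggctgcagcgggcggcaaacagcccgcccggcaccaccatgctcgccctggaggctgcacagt

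BCL6, the repressor that germinal centre B cells require, lies on the minus strand at chr3:187721377-187745725. Its main promoter region (chr3:187745322-187745846, over an exon and UTR) had rank percentiles of 56.1, 71.6 and 58.0 with CB-6644 and 69.0, 72.6 and 75.3 with DMSO. The groups overlapped only through the short-fragment libraries, CB-6644 replicate 2 lying above DMSO replicate 1. The means were 61.9 ± 8.45 and 72.3 ± 3.14 (SD, n = 3 each), a difference of -10.4 (p = 0.2, exact permutation) that was -16.9 within the long-fragment libraries. Ranked over all regions of a library the groups were apart (-10.6, p = 0.1), and ranked by fold they overlapped (-2.87, p = 1, both exact permutation, n = 3 each). The wider second region (chr3:187738499-187740237) in an intron differed the other way, by 10.3 (p = 0.2, exact permutation, n = 3 each). The 3 TSSs from 187734882 to 187736569 had no peak.

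BACH2, the repressor that opposes PRDM1, lies on the minus strand at chr6:89926528-90296843 and had the strongest promoter of the 9 genes. The region over an exon and UTR (chr6:90296467-90297047) had rank percentiles of 85.6, 86.7 and 84.0 with CB-6644 and 87.6, 81.4 and 77.7 with DMSO. The groups overlapped through DMSO replicate 1 (means 85.4 ± 1.37 and 82.2 ± 4.97, SD, n = 3 each; p = 0.4, exact permutation). It stood at percentile 55.8 among gene promoters, so the strongest of the 7 was near the middle of all genes with an open promoter. A second region next to it (chr6:90295213-90296406) differed by 7.59 (p = 0.6, exact permutation, n = 3 each), and the internal TSS at 90206689 had no peak.

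CIITA lies on the plus strand at chr16:10866222-10943021 and is transcribed from alternative promoters. The region at the canonical TSS (chr16:10876788-10877818) had rank percentiles of 63.7, 48.9 and 64.7 with CB-6644 and 39.2, 62.2 and 63.6 with DMSO. The low value in each group was the short-fragment library, and the other 4 libraries lay within 62.2 to 64.7. The means were 59.1 ± 8.85 and 55.0 ± 13.7 (SD, n = 3 each; p = 0.5, exact permutation). Ranked by fold enrichment the difference was 13.3 (p = 0.1, exact permutation, the smallest possible), and ranked over all regions of a library it was -1.77 (p = 0.6, exact permutation). The next promoter region downstream (chr16:10878589-10879078) differed by -7.76 (p = 0.2, exact permutation, n = 3 each). The TSSs at 10866222, 10866260 and 10922167 had no peak.

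The B-cell surface genes differed from each other. MS4A1 (chr11:60455846-60470752, plus strand) had no peak at any of its 6 TSSs and no region in its gene body in any library, and its nearest region (chr11:60446305-60447153) lay 8694 bp from the TSS. CD79B (chr17:63928738-63932336, minus strand) had a promoter region (chr17:63931898-63932502) in all 6 libraries, which is also within 1000 bp of a TSS of ENSG00000285947, so its signal cannot be assigned to CD79B alone. Its rank percentiles were 40.7, 23.5 and 16.9 with CB-6644 and 19.6, 24.3 and 35.6 with DMSO. The groups overlapped over nearly their whole range (means 27.0 ± 12.3 and 26.5 ± 8.22, SD, n = 3 each; p = 1, exact permutation). At percentile 6.17 among gene promoters, CD79B ranked low beside SPI1 (9.05), CIITA (21.4), BCL6 (30.4) and EBF1 (34.7).

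**Figure D1:**
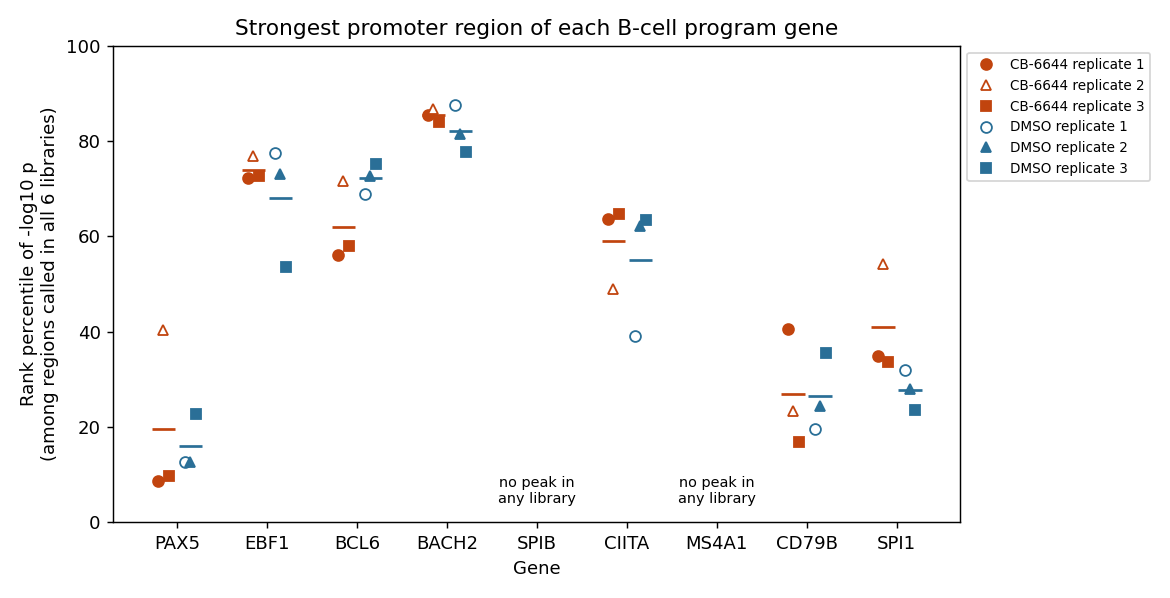
Rank percentile of -log10 p (among the regions called in all 6 libraries) of the strongest promoter region of each gene, 1 point per library with the group mean as a bar. Open symbols are the short-fragment libraries. SPI1 is the gene whose groups do not overlap (means 41.0 and 27.8), and SPIB and MS4A1 have no promoter peak.

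Summed over the 9 loci, 88, 93 and 84 regions were called in CB-6644 replicates 1 to 3 and 102, 94 and 88 in DMSO replicates 1 to 3. These totals overlapped between the groups, with a mean difference of -6.33. Per 10000 regions called in the library they were 15.3, 15.4 and 14.7 with CB-6644 and 14.3, 13.6 and 13.6 with DMSO. Scaled this way, the mean difference changed sign to 1.29 and the groups were apart. No background for this sum was computed. Of the 116 regions, 53 lay in the body of the gene itself and 15 were at the promoter of another gene, and signal at the latter cannot be assigned to the 9 genes.

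The EBF1 and BACH2 loci had fewer regions in every CB-6644 library than in any DMSO library, as did 14.3% of all loci of at least 5 regions. EBF1 had 10, 9 and 8 regions with CB-6644 and 12, 12 and 11 with DMSO, a difference of -2.67 (means 9 ± 1 and 11.7 ± 0.577, SD, n = 3 each; p = 0.1, exact permutation). BACH2 had 15, 16 and 15 with CB-6644 and 19, 20 and 17 with DMSO, a difference of -3.33 (means 15.3 ± 0.577 and 18.7 ± 1.53, SD, n = 3 each; p = 0.1, exact permutation). These are the genes with the largest spans of the 9, at 404 and 370 kb. Leaving out each library in turn, the BACH2 difference ranged from -5.33 (without DMSO replicate 3) to -2.67 (without DMSO replicate 2). Per 10000 regions called, the differences were -0.165 for EBF1 (p = 0.4) and -0.103 for BACH2 (p = 0.2, both exact permutation, n = 3 each), with overlapping groups, while 7.1% of loci had every CB-6644 value below. With the same number of top peaks from each library, the difference was -1 for EBF1 (p = 0.6) and -2 for BACH2 (p = 0.1, both exact permutation, n = 3 each).

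In the other 7 loci the groups overlapped, and none of the 9 had more regions in every CB-6644 library than in any DMSO library (0.747% of loci did). PAX5 had 14, 16 and 13 regions with CB-6644 and 15, 12 and 13 with DMSO (p = 0.6, exact permutation, n = 3 each). SPIB had 10, 8 and 9 with CB-6644 and 11, 11 and 10 with DMSO (p = 0.2, exact permutation). BCL6 had 7, 11 and 7 with CB-6644 and 10, 7 and 6 with DMSO (p = 0.7, exact permutation), the high value of each group being the short-fragment library. CIITA, with 11 to 12 and 11 to 13 regions, gave p = 1 by exact permutation, and so did SPI1, with 6 to 8 and 7. MS4A1 had 5 to 6 and 6 (p = 0.4, exact permutation), and CD79B had 8 to 9 and 7 to 9 (p = 0.7, exact permutation). Per 10000 regions called, 3 of the 9 loci were higher in every CB-6644 library, as were 22% of loci. The differences were 0.501 for PAX5, 0.235 for CIITA and 0.320 for CD79B (p = 0.1 each, exact permutation, n = 3 each). With the same number of top peaks the PAX5 difference was 3 (p = 0.1, exact permutation).

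**Figure D2:**
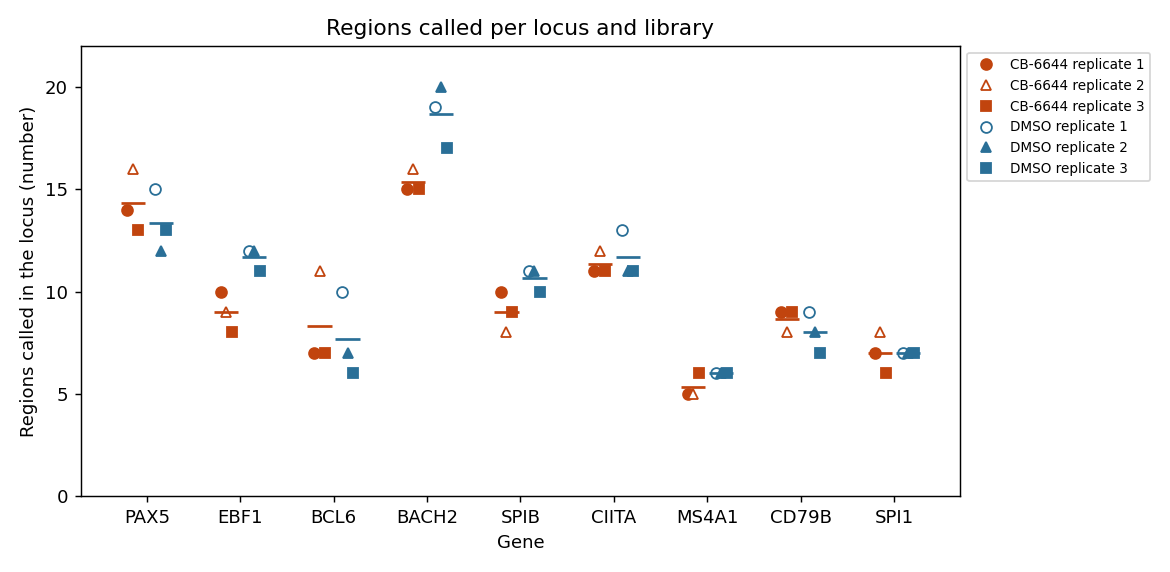
Number of merged regions each library called in each locus (gene body with 50 kb on each side), 1 point per library with the group mean as a bar and the short-fragment libraries as open symbols. The groups are apart at EBF1 (8 to 10 against 11 to 12) and BACH2 (15 to 16 against 17 to 20).

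Of the 116 regions, 69 (59.5%) were called in all 6 libraries, against 47.2% of all merged regions. Regions called in all 3 DMSO libraries and no CB-6644 library numbered 3 (2.59%), against 4.5% of all merged regions, and fell to EBF1, BACH2 and SPIB. Thus 3 of the 9 loci held a DMSO-only region, against 19.8% of all protein-coding genes. The opposite class, called in all 3 CB-6644 libraries and no DMSO library, had 0 members in the 9 loci, against 0.586% of all merged regions and 4.26% of genes. The count of this class became 1 without CB-6644 replicate 2, without CB-6644 replicate 3 or without DMSO replicate 1.

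The 3 DMSO-only regions were narrow, at 172 to 224 bp against a median of 488 bp for the member regions in all 6 libraries. The EBF1 region (chr5:159123772-159123995) lay outside any protein-coding gene at -24.0 kb from the canonical TSS, negative distances being upstream. Its fold enrichments in DMSO replicates 1 to 3 were 11.8, 12.6 and 9.46, and its -log10 p stood at percentiles 36.0, 45.6 and 36.1 of the regions called in each library. The BACH2 region (chr6:90109203-90109414) was in an intron 187.5 kb downstream, with folds of 17.8, 14.4 and 11.8 at percentiles 54.4, 48.1 and 40.9. These 2 regions were thus of middling strength in DMSO.
The SPIB region (chr19:50434745-50434916) lay 15.9 kb downstream of the SPIB TSS, in the body of MYBPC2. Its folds were 7.90, 4.81 and 6.09, at percentiles 21.7, 7.80 and 18.7, which made it the weakest of the 3.

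The 201 bases centred on the highest summit of each DMSO-only region are shown (hg38, plus strand), because these are the stretches that the CB-6644 lists lack. Capitals mark motif matches on either strand. The EBF1 window holds the ATF4-CEBP letters TGATGNAA, found in 3.98% of all windows. The BACH2 window holds the AP-1 letters TGANTCA (10.5% of all windows) and the E-box CAGGTG (27.6%), and the SPIB window holds the MAF letters TGCTGAC (5.30%) and the E-box.
EBF1, chr5:159123766-159123966: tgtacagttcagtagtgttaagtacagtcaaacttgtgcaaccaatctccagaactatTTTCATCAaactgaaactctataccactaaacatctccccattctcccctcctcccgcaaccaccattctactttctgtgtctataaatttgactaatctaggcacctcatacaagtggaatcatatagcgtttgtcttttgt
BACH2, chr6:90109232-90109432: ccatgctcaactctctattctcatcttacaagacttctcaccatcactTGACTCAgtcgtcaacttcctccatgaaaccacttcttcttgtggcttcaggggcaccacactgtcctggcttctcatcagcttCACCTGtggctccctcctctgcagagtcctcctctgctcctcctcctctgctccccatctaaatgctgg
SPIB, chr19:50434780-50434980: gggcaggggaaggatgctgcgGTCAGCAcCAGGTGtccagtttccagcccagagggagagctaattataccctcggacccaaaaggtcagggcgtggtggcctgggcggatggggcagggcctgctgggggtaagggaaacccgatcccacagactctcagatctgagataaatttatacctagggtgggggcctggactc

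**Figure D3:**
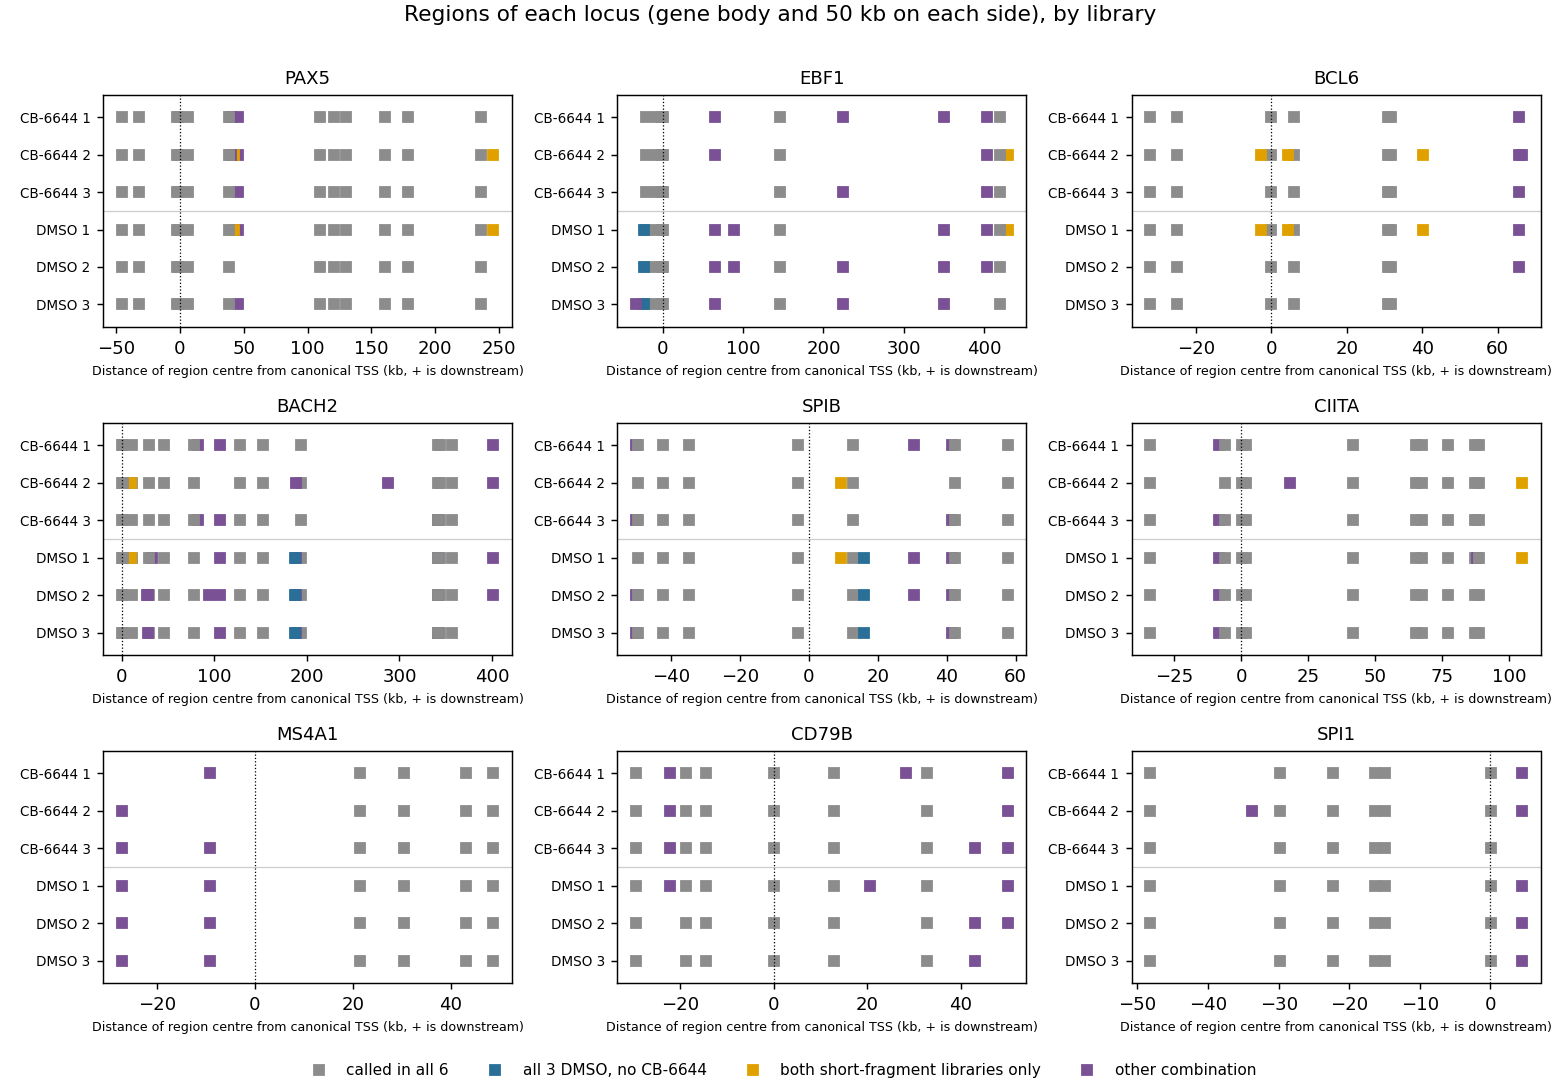
Regions of the 9 loci by library, placed by the distance of their centre from the canonical TSS (kb, downstream positive, dotted line at the TSS). Each square is a region called in that library, coloured by the libraries that share it. The 3 DMSO-only regions are in EBF1, BACH2 and SPIB, and no square lies at the TSS of SPIB or MS4A1.

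Another 9 regions (7.76%) were called in both short-fragment libraries, 1 of each group, and in no other, against 3.05% of all merged regions. BCL6 held 3 of them, PAX5 held 2, and EBF1, BACH2, SPIB and CIITA held 1 each. They were 96 to 173 bp wide with folds of 4.14 to 12.6, and each was thus called in 1 library of each group. The remaining 35 regions were called in other combinations, 11 of them in 1 library.

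Among the 69 shared regions, every CB-6644 rank was above every DMSO rank in 12 (17.4%), against 13.3% of all shared regions, and below in 6 (8.7%), against 13.4%. Ranked by fold enrichment, 10 of these 18 still did not overlap in the same direction, and ranked over all regions of a library 12 did. The sign of the difference was the same for 17 of the 18 under each of these rankings. Counted anew among the 69, ranking by fold placed CB-6644 above in 9 and below in 6 (each 10.7% of all shared regions). Ranking over all regions placed it above in 6 and below in 14 (5.82% and 25.7% of all shared regions), so the balance between higher and lower turned with the set ranked. The median difference in rank percentile over the 69 regions was 1.67, against 0.158 over all shared regions. Ranking over all regions of a library moved the median of all shared regions to -3.04, so small shifts of either sign depend on the set ranked.

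CIITA held the region with the largest difference under the main ranking, though not when ranked over all regions, where it was 29.3 against -30.3 for a BACH2 and -29.6 for an MS4A1 region. An intronic region at -5.94 kb from the canonical TSS (chr16:10871158-10871372), downstream of the gene's first annotated TSS, had rank percentiles of 57.3, 75.6 and 55.5 with CB-6644 and 28.0, 12.9 and 16.0 with DMSO. The difference was 43.8. It was 41.9 when only long-fragment libraries were used and 47.5 for the short-fragment pair, and the groups stayed apart under both other rankings. The canonical CIITA promoter overlapped between groups under 2 of the 3 rankings and was apart, higher with CB-6644, by fold.

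At SPI1, 2 regions upstream of the promoter had every CB-6644 rank above every DMSO rank, as the promoter did. These were 3 of the 6 shared regions of the locus, where 13.3% of all shared regions had higher CB-6644 ranks. The region at -14.9 kb (chr11:47393263-47393691) had rank percentiles of 22.7, 38.1 and 20.9 with CB-6644 and 3.21, 1.30 and 6.55 with DMSO, a difference of 23.5. The region at -22.2 kb (chr11:47400460-47401114) had 23.2, 38.0 and 33.8 with CB-6644 and 10.01, 5.27 and 15.4 with DMSO, a difference of 21.5. Both were among the weaker shared regions in DMSO, were apart under both other rankings, and differed by 17.9 and 18.2 within the long-fragment libraries. A shared region lying between them, at -16.4 kb (chr11:47394796-47395114), had overlapping groups and went the other way. It differed by -2.58 under the main ranking, by -9.96 by fold and by -9.67 over all regions. The strongest regions of this locus, at the promoters of SLC39A13 and PSMC3, also had overlapping groups. The windows of the larger rises are not shown: that at -14.9 kb held no match, and the CIITA window held the AP-1 letters (10.5% of all windows). The window of the region at -22.2 kb is shown for its 2 matches in capitals. They are to the IRF letters GAAANNGAA (13.8% of all windows) and to the octamer ATGCAAAT (2.34%), which the factor POU2F2 of B cells binds.
SPI1, chr11:47400805-47401005: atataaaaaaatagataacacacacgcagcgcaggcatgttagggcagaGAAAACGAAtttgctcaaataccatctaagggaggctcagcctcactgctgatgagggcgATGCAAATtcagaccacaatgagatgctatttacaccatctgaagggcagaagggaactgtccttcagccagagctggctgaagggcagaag

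The other regions with higher CB-6644 ranks included the MYBPC2 promoter in the SPIB locus (chr19:50431499-50432281), with 67.6, 82.6 and 67.4 against 52.0, 55.2 and 46.0. A PAX5 intron region (chr9:36913379-36914120) had 44.1, 32.9 and 57.7 against 27.6, 22.6 and 20.9, but its groups overlapped under both other rankings. A region of the MS4A1 locus in the body of MS4A12 (chr11:60498663-60499348) differed by 14.6, and overlapped when ranked by fold. A region at 236 kb downstream of the PAX5 TSS (chr9:36798311-36798662) differed by 11.1 under the main ranking and was apart under both others. Its difference was 6.85 without CB-6644 replicate 2. The last 4, in the SPIB (2), BACH2 and BCL6 loci, differed by 4.02 to 6.87 and overlapped under both other rankings. The BCL6 region among them (chr3:187777272-187777648) changed sign to -3.24 by fold and -3.60 over all regions, and was 1.796 without CB-6644 replicate 1.

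The 6 regions with lower CB-6644 ranks fell to BACH2, MS4A1, BCL6 and CD79B. A BACH2 intron region 341 kb downstream of the TSS (chr6:89955342-89955715) had rank percentiles of 29.3, 20.0 and 7.55 with CB-6644 and 43.8, 46.8 and 44.6 with DMSO, a difference of -26.1. A second BACH2 intron region (chr6:90267311-90267554) differed by -13.2, and its groups overlapped when ranked by fold. These were 2 of the 12 shared regions of the BACH2 locus, where 13.4% of all shared regions had lower CB-6644 ranks. The DMSO-only region was 1 of the 24 regions of the locus, against 4.5% of all merged regions. A further intronic region (chr6:90284345-90286071) went the other way, by 4.19 under the main ranking and by 22.96 by fold, where its groups overlapped.
MS4A1 held 2, both beyond the 3' end of the gene. The region 21.5 kb downstream of the TSS (chr11:60477101-60477502) had 6.72, 8.94 and 16.6 with CB-6644 and 36.1, 25.9 and 31.2 with DMSO, a difference of -20.3. The region in the body of MS4A12 (chr11:60504342-60504612) had 9.81, 3.66 and 3.62 against 15.05, 23.9 and 24.3, while the region 30.4 kb downstream (chr11:60486042-60486398) stood between 69.2 and 91.5 with overlapping groups.
A BCL6 region at -24.9 kb (chr3:187770191-187770569) had 9.49, 3.66 and 6.48 against 15.7, 29.9 and 24.1. A region at -29.5 kb from CD79B, in the body of SCN4A (chr17:63961498-63962130), had 36.8, 38.8 and 44.8 against 57.3, 60.5 and 63.2. Except for the second BACH2 region, these were apart under both other rankings.
The windows of the BACH2 and MS4A1 regions with the largest differences are shown. The capitals mark the E-box in both and the ATF4-CEBP letters in MS4A1.
BACH2, chr6:89955473-89955673: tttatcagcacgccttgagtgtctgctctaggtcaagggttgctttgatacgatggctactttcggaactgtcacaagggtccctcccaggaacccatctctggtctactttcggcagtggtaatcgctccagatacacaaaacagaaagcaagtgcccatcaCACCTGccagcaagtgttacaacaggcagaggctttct
MS4A1, chr11:60477202-60477402: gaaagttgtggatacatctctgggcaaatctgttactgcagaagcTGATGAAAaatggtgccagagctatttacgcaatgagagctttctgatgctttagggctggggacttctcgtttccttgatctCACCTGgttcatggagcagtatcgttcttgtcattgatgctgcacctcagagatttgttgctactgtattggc

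**Figure D4:**
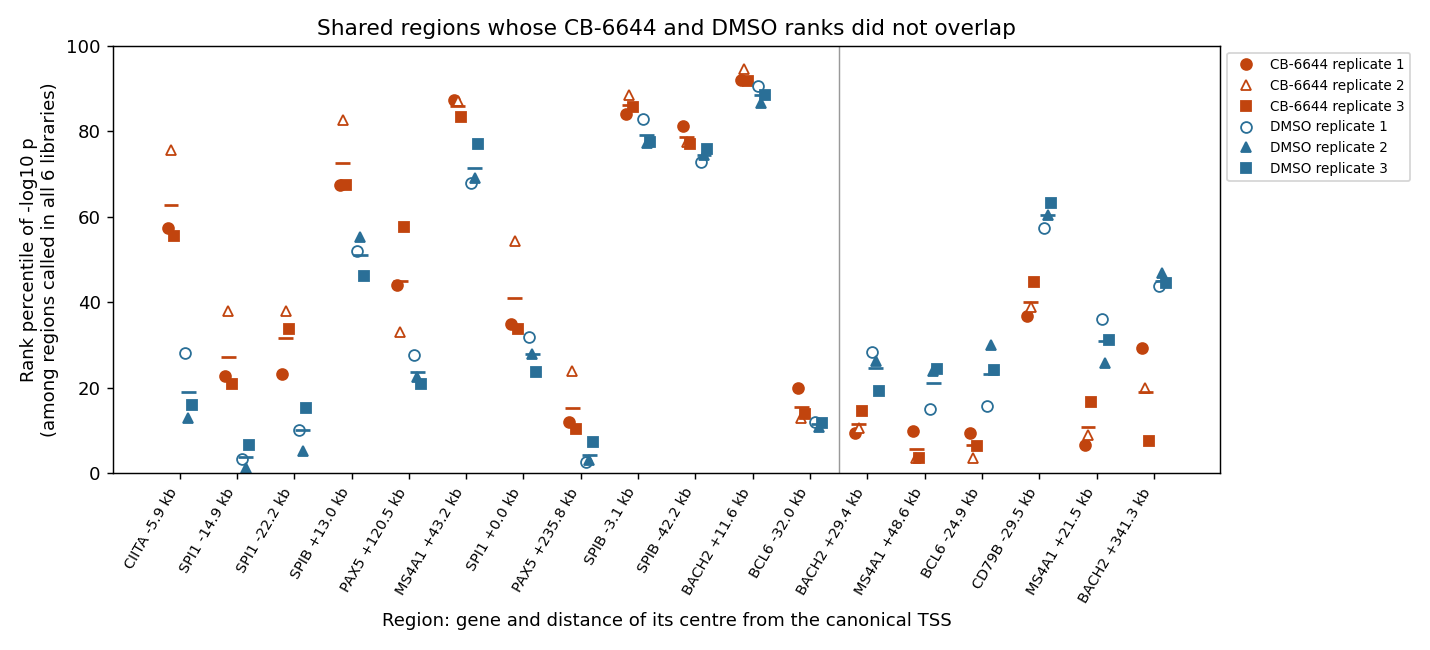
Rank percentile of -log10 p by library for the 18 shared regions of the 9 loci whose groups did not overlap, labelled by gene and distance of the centre from the canonical TSS. Bars are group means and open symbols the short-fragment libraries. The 12 regions left of the line are higher with CB-6644, with CIITA at -5.94 kb the furthest apart, and the 6 on the right are lower, with BACH2 at 341 kb the furthest apart of these.

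Motif letters in the 201-bp summit windows of all 116 regions were counted on both strands and set beside all 89196 windows, with no test. The E-box was in 44 windows (37.9%, against 27.6% of all windows) and the EBF letters in 17 (14.7% against 7.99%). The AP-1 letters were in 18 (15.5% against 10.5%) and the MAF letters in 10 (8.62% against 5.30%). The interferon regulatory factor letters were in 16 (13.8% against 13.8%), the joint ETS-IRF letters GGAANNGAA in 8 (6.90% against 7.78%), and the octamer in 4 (3.45% against 2.34%). The PU.1 letters AGAGGAAGT and the PRDM1 letters AGNGAAAGT were in 1 window each, or 0.862% against 1.66% and 2.05%. The ATF4-CEBP letters were in 6 (5.17% against 3.98%), the NF-kB letters GGGNNTTCC in 3 (2.59% against 4.21%) and the ETS letters CCGGAAGT in 2 (1.72% against 1.31%). The IRF, ETS-IRF and PRDM1 letters share a GAA core, so 1 stretch can match several. The median GC content was 53.2% in the member windows and 49.3% in all windows, and its part in these shares was not tested. A match is a description of letters and not a bound site.

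The wider B-cell program also held promoters with and without a peak. Of 28 other B-cell genes, 19 had a promoter peak in all 6 libraries and 8 had none, near the 64.9% and 29.7% of all genes, and 1, CD79A (the partner of CD79B), had a peak in CB-6644 replicate 2 alone, a short-fragment library. All 8 factors of that list, including POU2F2, IRF8 and IKZF1, were open in all 6, as were 5 of 6 signalling genes, with BLK at none. Among the receptor and surface genes, CD22 and FCER2 had no promoter peak in any library. Among the remaining genes, CXCR5, FCRL1 and VPREB3 had none. In this list 7 loci held a DMSO-only region and 3 a CB-6644-only region, against 19.8% and 4.26% of all genes.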

How the data were processed

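Omni-ATAC peak lists of 3 CB-6644 and 3 DMSO libraries of MM.1S were analysed, grouped by their labels. According to the submitters' processing notes, Bowtie2 2.4.2, MACS3 3.0 and the hg38 build were used; the authors aligned the reads and called peaks for each library, and further settings are not given in the sources used here. Fold enrichment, as deposited, is a ratio of pile-up to local background at the summit, and the deposited -log10 p and -log10 q values are the authors' peak caller's, with no scaling between libraries. The lists hold no read counts, so no model of counts was fitted.

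Peaks of the autosomes (up to 22), X and Y were merged at an overlap of at least 1 bp (Python 3.11.15, numpy 2.4.6, scipy 1.17.1, pandas 2.3.3, matplotlib 3.10.9). Gene models were GENCODE release 44, and 0 peaks ran past a chromosome end of the genome copy used. A region took the highest -log10 p of each library's peaks in it. Counts per locus and promoter ranks were compared by exact two-sided permutation (smallest p 0.1). Scripts were tested on simulated data. The 9 genes, the other gene lists, the motifs and the alternatives were chosen with earlier results of these data known. Every gene of the 9 was named, with its regions that were at a promoter, group-only, or had no overlap of the groups in rank. Of the 9 genes, 5 matched the RefSeq promoter table by symbol. Same-numbered replicates did not deviate together, so the main comparisons were unpaired. Alternatives covered stricter and equal-sized peak lists, the long-fragment libraries, leaving out each library, other promoter windows, TSSs, flanks and overlaps, 2 of 3 libraries, other rankings and a replicate block. Some items are not reported here.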

Additional observations from a re-analysis of the deposited data

How the results depend on the processing

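There were 21 alternative settings, of which 6 left out a library, and each result was recomputed under those that apply to it, giving 460 alternative values. Of these, 29 changed sign, and 13 kept their sign or were counts but moved, by over 1.5 times for a count and by more than the SD between replicates for a summed difference. The lists give no depth, which limits any statement on a missing peak, and no permutation test could go below 0.1 with 3 libraries a group. The settings for single regions with separated groups were added after seeing the data. The causes of the following changes were not tested.

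With equal numbers of top peaks, the CB-6644-only count was 1 (0 in the report), and the summed difference in regions over the 9 loci, -6.33 in the report, became 1.67, with SPIB at 0.333. With the 20000 top peaks, 3 promoters were open in all 6 libraries in place of 7, the DMSO-only count was 1 in place of 3 and the CB-6644-only count 1. The locus differences there were -0.333 for BCL6, 0.667 for SPIB, 1 for CIITA and -1.33 for CD79B. In the long-fragment libraries alone, with peaks merged anew, the DMSO-only and CB-6644-only counts were 5 and 2, and the promoter differences were -7.70 for PAX5 and -0.0386 for CD79B. Calling by 2 of 3 libraries also gave 5 and 2. Requiring peaks to cover 50% of a region gave a summed difference of -19.0, with -2.67 for PAX5 and -1.33 for CD79B. Without the flanks, the DMSO-only count was 1. Per 10000 regions called, the summed difference was 1.29, CIITA 0.235 and MS4A1 0.0361. Ranked by fold, the CD79B promoter was -2.19 and the BCL6 region at 187777272 was -3.24. Ranked over all regions, the median promoter difference, 3.61 in the report's ranking, was -1.77, with PAX5 at -5.29, CIITA at -1.77, CD79B at -7.63 and that BCL6 region at -3.60.

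Leaving out each library in turn gave 0 to 1 CB-6644-only regions, 3 to 4 DMSO-only regions, a summed difference of -10.8 to -2.67 and a median promoter difference of 1.70 to 5.52. The promoter differences ranged from -6.36 to 5.52 for CD79B, -6.30 to 9.13 for PAX5, -3.75 to 8.52 for CIITA and -1.33 to 10.5 for EBF1. They turned without CB-6644 replicate 1 or DMSO replicate 1 or 2 (CD79B), CB-6644 replicate 2 (PAX5), DMSO replicate 1 (CIITA) and DMSO replicate 3 (EBF1). The locus differences ranged from -0.667 to 1.83 for BCL6, turning without CB-6644 replicate 2 or DMSO replicate 3, and from -0.667 to 0.333 for CIITA, turning without DMSO replicate 1.

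With a replicate block, the summed difference stayed at -6.33 and the median promoter difference at 3.61, and no sign-flip p can go below 0.25. Deviations of same-numbered libraries correlated at -0.441, -0.186 and 0.288, so the numbers were not taken as pairs.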
